A study of Mus musculus with 4 samples.

Results

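The enzymes that take methyl groups off lysine 4 of histone H3, and the proteins that carry one of them to chromatin, were examined as a set of 9 genes in mouse embryonic stem cells depleted of Kdm5b. They were chosen by name: the demethylases Kdm5a, Kdm5b, Kdm5c, Kdm1a (LSD1) and Kdm1b (LSD2), the CoREST scaffolds Rcor1, Rcor2 and Rcor3, and the histone reader Phf21a. All 9 were found among the 23697 loci of the deposited table, each with 1 row, and all 9 were among the 11784 loci tested, those whose mean reached 1 FPKM (fragments per kilobase of transcript, normalised to the size of the library). The cells were WW6 embryonic stem cells of mixed C57/B6J, 129/Sv and SJL origin, cultured without feeder cells in serum and leukemia inhibitory factor. They were transfected 24 hours after seeding, for 4 hours, with small interfering RNA (siRNA) against GFP in the control group or against Kdm5b in the knockdown group, per the labels' protocols, whereas the sample labels speak of a mock or a targeting construct. The transfection was transient and the time of harvest is not stated there. Each group had 2 libraries of RNA depleted of ribosomal RNA, called A and B by the labels, which do not say that the letters mark separate cultures. Paired values below are for library A and then library B. The p-values thus reflect the spread between libraries alone, and that spread may be technical.

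Methylation of H3 lysine 4 marks promoters and enhancers, and it is removed by enzymes of different chemistries. The KDM5 proteins use iron and a JmjC domain and can act on the trimethylated form. LSD1 and LSD2 use flavin and act on the lower methylation states. LSD1 works within the CoREST complex, in which an RCOR protein links it to nucleosomes and to the histone deacetylases HDAC1 and HDAC2, and PHF21A (BHC80) binds the unmethylated histone tail. The complex is best known for holding neuronal genes silent in other cells with the repressor REST. In embryonic stem cells KDM5B and LSD1 have both been studied as regulators of the balance between self-renewal and differentiation.

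The libraries were checked before the genes were compared. The 8 stem cell markers summed to 3493 to 4626 FPKM in the 4 libraries, with Dppa5a and Pou5f1 the largest parts. These sums overlapped between the groups, but those of the other 3 marker lists were lower in both knockdown libraries than in both controls. Among single tested loci 16.9% lay that way. So did 1 of the 8 stem cell markers, Esrrb, at 174 and 137 FPKM against 107 and 121 FPKM. Of these 8, 5 had a log2 fold change above 0 and 3 below. The 6 endoderm markers summed to 10.8 and 14.8 FPKM in the controls and to 2.59 and 2.91 FPKM in the knockdown libraries. Cubn was the largest part of both control sums, while Gata6 was highest in knockdown A. The 6 fibroblast markers, with Lum at 0 throughout, summed to 9.17 and 2.92 FPKM against 0.26 and 1.55 FPKM. Acta2 alone had 6.48 FPKM in control A, with 1.17 in control B, 0 in knockdown A and 1.09 in knockdown B. The 5 neural markers, mostly Tubb3, summed to 64.7 and 66.1 FPKM against 55.4 and 50.9 FPKM. Of the markers tested, 4 of 4 endoderm, 2 of 2 fibroblast and 3 of 4 neural ones had a log2 fold change below 0. Over all tested loci, of any level, 52.9% were below 0. Of these markers 0 were called, beside 0.0339% of all tested loci. The tested endoderm and fibroblast markers had means of only 1.06 to 3.06 FPKM, so all tested loci are not a like background for them. Gata4 and Dab2 were at 0 in knockdown A. The part of these lists in the results below was not tested. Knockdown A stood apart, with 11953 loci at 0 against 8131 to 8609 in the other 3 libraries. From the steps between low values, 1 FPKM over 1 kb of effective transcript length was worth an estimated 4.37 and 4.29 fragments in control A and B, against 3.27 in knockdown A and 4.24 in knockdown B. The estimate for knockdown A rests on 392 low values, against 1148 to 1398 in the other libraries. In 71.8% of tested loci knockdown A was the highest or the lowest library, and this held for 5 of the 9 genes. Ties with knockdown B were counted and ties with a control were not.

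The transcripts of Kdm5b and its paralogs were compared first, since reads of near-identical copies can be miscounted. Coding sequences of Kdm5b and Kdm5a were 67.5% identical over their aligned bases, those of Kdm5b and Kdm5c 66.9%, and those of Kdm5a and Kdm5c 67.6%, by the GENCODE M21 transcripts that carry the RefSeq identifiers of the table. The stretch of 60 coding bases that both paralogs match best is shown here with bases that differ from Kdm5b in capitals, to show how alike the 3 transcripts are at their closest. It starts at coding base 1177 of Kdm5b, 1129 of Kdm5a and 1222 of Kdm5c.
Kdm5b: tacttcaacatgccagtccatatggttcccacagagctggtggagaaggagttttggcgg
Kdm5a: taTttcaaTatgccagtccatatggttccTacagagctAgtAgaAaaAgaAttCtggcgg
Kdm5c: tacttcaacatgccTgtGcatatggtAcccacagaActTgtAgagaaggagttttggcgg
Kdm5a differed at 9 and Kdm5c at 6 of these 60 bases. The longest exact run shared by Kdm5b and Kdm5c was 32 bases, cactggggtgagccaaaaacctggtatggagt, and that shared by Kdm5b and Kdm5a was 20 bases. Counted as overlapping stretches of 21 bases, Kdm5b shared 12 with Kdm5c and 0 with Kdm5a. The run of 32 bases by itself holds 12 such stretches, so they are not separate sites. These runs are shorter than the 300 bp to which the cDNA was sheared. Read length was not used here, and only coding sequence was compared. Whether reads were shared between the paralogs was therefore not tested. Whether the siRNA, whose sequence was not used here, lies in a shared run was not tested.

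Kdm5b (NM_152895; mm9 chromosome 1, 136456754 to 136529455), the targeted H3K4 demethylase, had 99.7 FPKM in control A, 145 in control B, 22.7 in knockdown A and 31.1 in knockdown B. Both knockdown libraries lay below both controls, and the ratio of a knockdown to a control library ran from 15.7% to 31.2% over the 4 pairings. Knockdown A held 18.6% and knockdown B 25.4% of the control mean of 122 ± 32.1 FPKM (SD, n = 2). In fragments the 4 values stand for an estimated 3710 and 5302 in the controls and 633 and 1123 in the knockdown libraries. The log2 fold change on the log2(FPKM + 1) scale, used for all fold changes here, was -2.14 (standard error 0.30, 95% interval -2.86 to -1.42). Its size exceeded that of 99.1% of tested loci. Over all loci the adjusted p was 0.562 by limma with Benjamini-Hochberg adjustment, above the threshold of 0.05, so Kdm5b itself was not called.

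None of the 9 genes passed that threshold: 0 of 9 were called, beside 0.0339% of all tested loci. At an unadjusted limma p under 0.05 the count was 1 of 9, Kdm5b, beside 2.46% of loci. Both knockdown libraries lay below both controls for 2 of the 9 genes, Kdm5b and Kdm5a, beside 16.9% of loci, and above both controls for 0 of 9, beside 15.0% of loci. The median log2 fold change of the 9 genes was -0.26, beside -0.03 over all tested loci, with 6 genes on the lower side. The number of libraries limits the precision: the median half-width of the 95% interval over all loci was 0.90 log2 units, and Kdm5c, Kdm1a and Kdm1b were the 3 genes whose whole interval lay within 1 log2 unit of 0.

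**Figure D1:**
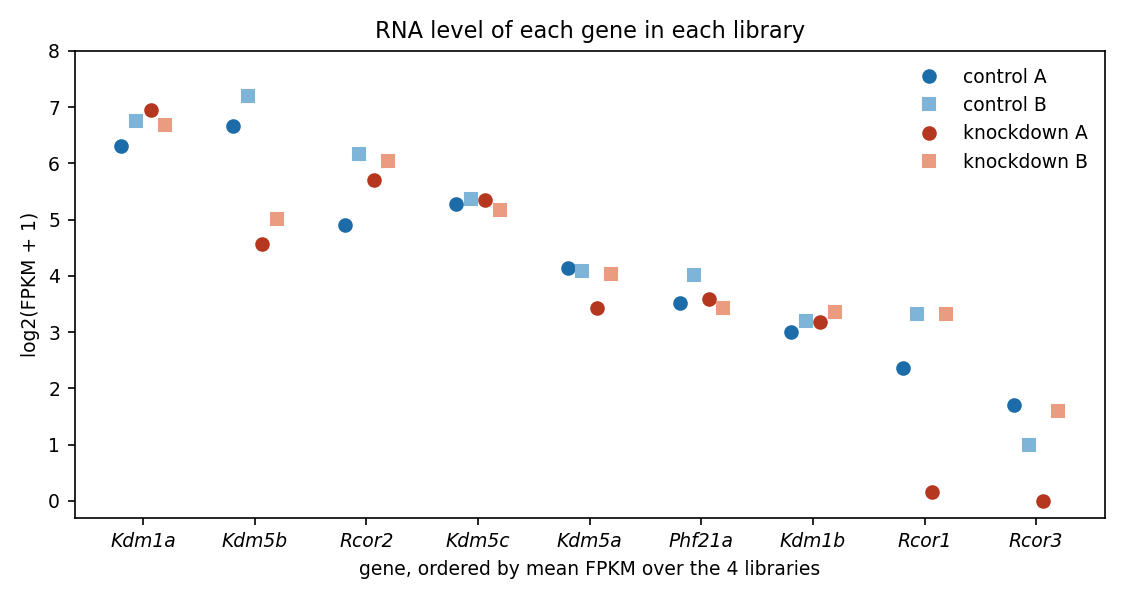
RNA level of the 9 genes, as log2(FPKM + 1) on the vertical axis, in each of the 4 libraries (points; control in blue, knockdown in red), with genes ordered by mean FPKM. Kdm5b is the gene with both knockdown libraries far below both controls, and Rcor1 and Rcor3 are near or at 0 in knockdown A alone.

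Ordered by mean FPKM over the 4 libraries, a scale that corrects for transcript length, the genes ran Kdm1a, Kdm5b, Rcor2, Kdm5c, Kdm5a, Phf21a, Kdm1b, Rcor1, Rcor3. Their means were 102, 74.7, 53.8, 38.2, 14.4, 11.6, 8.13, 5.55 and 1.32 FPKM. Kdm1a stood above 92.7% of tested loci and Rcor3 above 4.23%, so the set spans most of the range of tested loci. The ranges of neighbours in this order did not overlap at 2 steps, from Kdm5c down to Kdm5a and from Phf21a down to Kdm1b. At the other 6 steps the ranges over the 4 libraries overlapped. Within each library, however, Rcor1 was above Rcor3 in 4 of 4, though in knockdown A only by 0.12 FPKM, an estimated 0.99 fragments, against 0. The place of Kdm5b differed by group: it was above Kdm1a and Rcor2 in both controls and below them in both knockdown libraries. At the remaining 3 steps, from Rcor2 to Kdm5c, Kdm5a to Phf21a and Kdm1b to Rcor1, the order held in 3 of 4 libraries, and those neighbours did not differ beyond their spread. The ratio of Kdm5b to Kdm1a was 1.27 and 1.35 in the controls and 0.19 and 0.31 in the knockdown libraries.

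The KDM5 paralogs were measured at very different levels. Kdm5c (NM_013668; mm9 chromosome X, 148667772 to 148708897), the X-linked paralog known for its mutation in intellectual disability, had 37.7 and 40.4 FPKM in the controls and 39.6 and 35.1 FPKM in the knockdown libraries. The groups overlapped, and the highest library was only 1.15 times the lowest, the narrowest range of the 9 genes. Its log2 fold change was -0.07 with a 95% interval of -0.65 to 0.51 (limma adjusted p = 0.974), which bounds any rise or fall more tightly than for the other 8 genes. Kdm5a (NM_145997; mm9 chromosome 6, 120274339 to 120394592), first found as a binding partner of the retinoblastoma protein, had 16.7 and 16.0 FPKM in the controls and 9.71 and 15.3 FPKM in the knockdown libraries. The knockdown libraries lay below the controls, but knockdown B held 93.6% of the control mean and knockdown A 59.4%. Its log2 fold change of -0.39 (95% interval -1.19 to 0.41, limma adjusted p = 0.918) became -0.09 without knockdown replicate A and -0.70 without knockdown replicate B. Kdm5a shares 251 exonic bases with Ccdc77 on the opposite strand in GENCODE M21, and Ccdc77 was listed at 17.5 to 20.9 FPKM. The strand setting used in counting is not given in the sources used here, and fragments of the pair may have been shared. Kdm5d, the Y-linked paralog, was listed at 0 in all 4 libraries, while 3 of the 14 Y loci had a mean of at least 1 FPKM.

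Kdm5b was the most abundant KDM5 transcript in both controls and came after Kdm5c in both knockdown libraries. The 3 genes together summed to 154 and 202 FPKM in the controls and 72.1 and 81.5 FPKM in the knockdown libraries. Kdm5b made up 64.7% and 72.0% of the sum in the controls and 31.6% and 38.2% in the knockdown libraries, and Kdm5c 24.5% and 20.1% against 55.0% and 43.0%. The ratio of Kdm5b to Kdm5c, which no scaling factor per library can alter, was 2.65 and 3.59 in the controls and 0.57 and 0.89 in the knockdown libraries. Of the 101 FPKM by which the mean sums differed, Kdm5b accounted for 95.5 FPKM, or 94.5%. These sums and shares are a description, with no test.

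**Figure D2:**
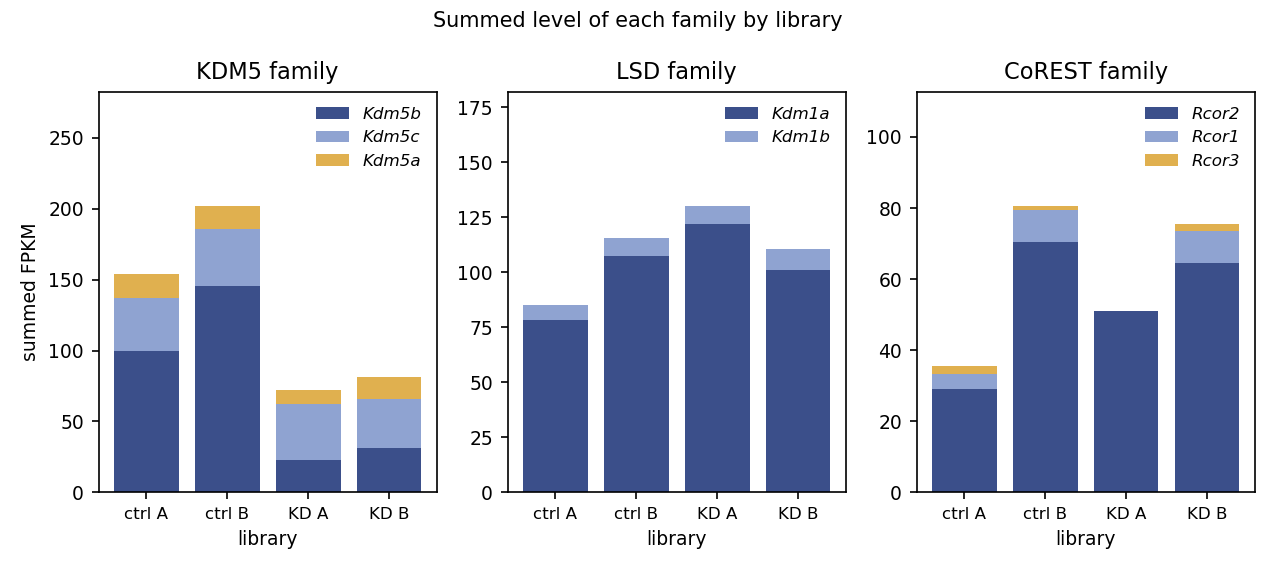
Summed FPKM (vertical axis, each panel on its own scale from 0) of the KDM5, LSD and CoREST families in the 4 libraries, divided by gene. The KDM5 sum is 154 and 202 FPKM in the controls against 72.1 and 81.5 FPKM in the knockdown libraries, and Kdm1a and Rcor2 make up most of the LSD and CoREST sums in every library.

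Kdm1a (NM_133872; mm9 chromosome 4, 136106447 to 136158638), which encodes LSD1, had 78.3 and 107 FPKM in the controls and 122 and 101 FPKM in the knockdown libraries. Control A was the low library and knockdown A the high one, and the groups overlapped. The log2 fold change was 0.27 (95% interval -0.35 to 0.90, limma adjusted p = 0.918), and it was 0.05 without control replicate A but 0.50 when control replicate B was left out. Kdm1b (NM_172262; mm9 chromosome 13, 47138867 to 47201589), the LSD1 paralog that acts without CoREST and is known from oocyte imprinting, had 7.04 and 8.18 FPKM in the controls and 8.10 and 9.21 FPKM in the knockdown libraries. The groups overlapped, with a log2 fold change of 0.17 (95% interval -0.63 to 0.96, limma adjusted p = 0.945). With control replicates A and B left out in turn it was 0.07 and 0.26. Kdm1a supplied 91.7% to 93.8% of the summed FPKM of the pair in the 4 libraries, and the ratio of Kdm1a to Kdm1b was 11.1 and 13.1 in the controls and 15.0 and 10.99 in the knockdown libraries. Kdm1b shares 505 exonic bases with Dek on the opposite strand, listed at 73.6 to 81.8 FPKM, and whether Dek fragments were counted to it was not tested. The coding sequences of Kdm1a and Kdm1b were 62.1% identical over aligned bases, with no shared run longer than 11 bases.

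The CoREST scaffolds Rcor1, Rcor2 and Rcor3 are paralogs. Their coding sequences are 68.7% to 71.5% identical over aligned bases. The 60 coding bases of Rcor1 that its paralogs match best, starting at coding base 247 of Rcor1, 379 of Rcor2 and 409 of Rcor3, are shown with differences from Rcor1 in capitals, to show how far the 3 transcripts can be told apart where they are most alike.
Rcor1: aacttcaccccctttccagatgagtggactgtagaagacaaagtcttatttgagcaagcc
Rcor2: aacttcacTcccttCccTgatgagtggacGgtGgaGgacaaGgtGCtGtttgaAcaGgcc
Rcor3: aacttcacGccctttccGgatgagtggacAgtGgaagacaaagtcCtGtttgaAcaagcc
Rcor2 differed from Rcor1 at 12 and Rcor3 at 7 of these bases, and the longest shared run of any pair was 23 bases, between Rcor1 and Rcor3.

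Rcor2 (NM_054048; mm9 chromosome 19, 7344253 to 7349715), the scaffold that predominated here, had 29.1 and 70.5 FPKM in the controls and 51.0 and 64.6 FPKM in the knockdown libraries. Both knockdown values fell between the 2 controls. The controls differed from each other by 1.25 log2 units, against a median absolute difference of 0.32 over all tested loci. The log2 fold change was 0.33 (95% interval -0.72 to 1.39, limma adjusted p = 0.926), and its sign turned to -0.29 without control replicate A, while it was 0.96 without control replicate B. Rcor2 made up 82.0% to 99.8% of the summed CoREST FPKM in the 4 libraries.

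Rcor1 (NM_198023; mm9 chromosome 12, 112278008 to 112351597), the founding CoREST gene, had 4.13 and 8.998 FPKM in the controls, 0.12 FPKM in knockdown A and 8.95 FPKM in knockdown B. Knockdown A was far below the other 3 libraries, and knockdown B lay within the control range. With the matched transcript of 2720 bases these values stand for an estimated 45.4 and 97.3 fragments in the controls, 0.99 in knockdown A and 95.6 in knockdown B. The log2 fold change of -1.10 (95% interval -3.61 to 1.41, limma adjusted p = 0.918) rested on knockdown A: it was 0.47 without knockdown replicate A and -2.68 without knockdown replicate B. Other loci were as low in that library. Of 2044 loci with a mean of 5 to 10 FPKM over the other 3 libraries, 150 (7.34%) were under 0.5 FPKM in knockdown A. The same share, taken for each other library against its own other 3, was 0.20% in control A, 0.25% in control B and 0.34% in knockdown B. Rcor2 was 7.04 and 7.83 times Rcor1 in the controls and 7.21 times in knockdown B. In knockdown A it was 425 times Rcor1, a ratio that rests on the estimated 0.99 fragments of Rcor1.

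Rcor3 (NM_144814; mm9 chromosome 1, 193924342 to 193974907), the remaining CoREST paralog, was the least abundant of the 9 genes. It had 2.27 and 1.00 FPKM in the controls, was listed at 0 in knockdown A and stood at 2.02 FPKM in knockdown B. These are an estimated 35.2, 15.2, 0 and 30.5 fragments, and the groups overlapped. The log2 fold change was -0.56 (95% interval -2.47 to 1.36, limma adjusted p = 0.929), 0.24 without knockdown replicate A and -1.35 without knockdown replicate B. Phf21a (3 RefSeq transcripts; mm9 chromosome 2, 92024338 to 92204823), whose product reads unmethylated H3 lysine 4, had 10.4 and 15.1 FPKM in the controls and 10.98 and 9.80 FPKM in the knockdown libraries. Control B was the high library and the other 3 lay close together. Its log2 fold change of -0.26 (95% interval -1.05 to 0.54, limma adjusted p = 0.925) was -0.0055 without control replicate B and -0.51 without control replicate A.

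**Figure D3:**
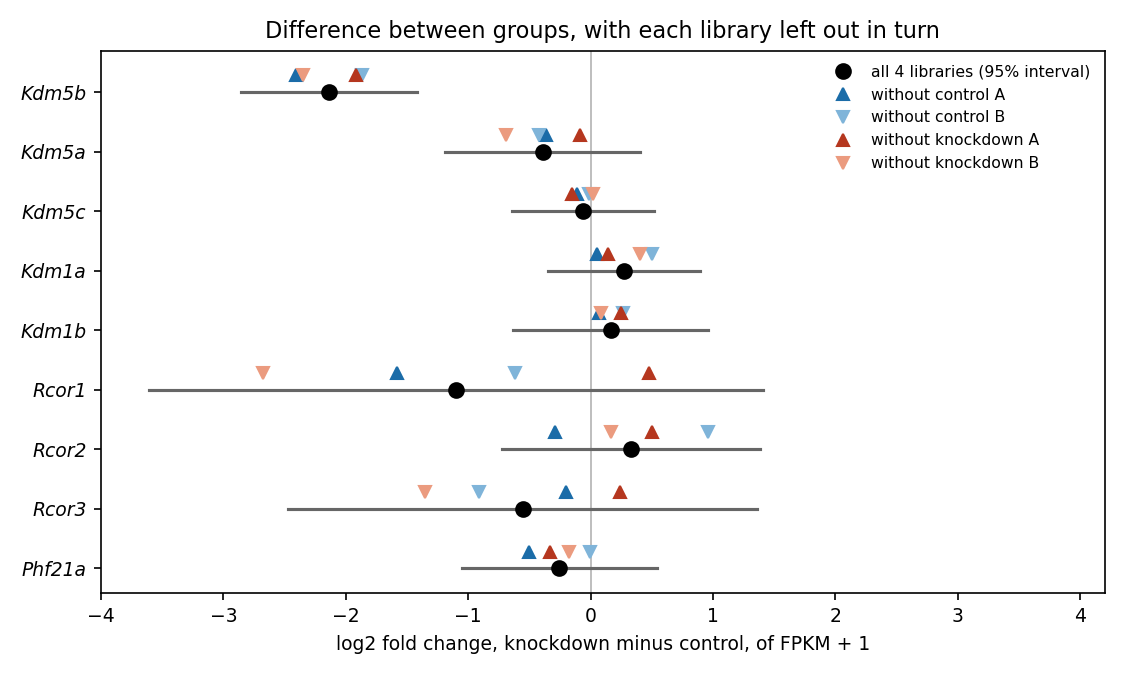
Log2 fold change of each gene, knockdown minus control, on the log2(FPKM + 1) scale (black points, with 95% interval as bars), and the same with 1 library left out (triangles). Kdm5b stays between -2.40 and -1.87, while Rcor1 runs from -2.68 to 0.47 and Kdm5c, Rcor1, Rcor2 and Rcor3 cross 0.

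The promoters of these genes were examined for CG dinucleotides, which cluster at the starts of broadly expressed genes. RefSeq promoters (GRCm38.p6) matched 8 of the 9 genes, Kdm5a being the other. In the 250 bases before the start the CG dinucleotide occurred 10 to 39 times in these genes, leaving out a second Phf21a start with 0, against a median of 6 over the 32851 promoters of the table. The promoters of the table were not limited to expressed genes. Their upper quartile was 16, which Kdm5b with 13 and Kdm5c with 10 did not reach. The targeted gene and the gene of lowest level are printed with CG in capitals, as the examples with a high and a low RNA level. The first is chr1:134559928-134560177 on the plus strand, with 13 CG, and the second chr1:192138041-192138290 on the minus strand, with 39 CG, more than in 98.4% of promoters.
Kdm5b: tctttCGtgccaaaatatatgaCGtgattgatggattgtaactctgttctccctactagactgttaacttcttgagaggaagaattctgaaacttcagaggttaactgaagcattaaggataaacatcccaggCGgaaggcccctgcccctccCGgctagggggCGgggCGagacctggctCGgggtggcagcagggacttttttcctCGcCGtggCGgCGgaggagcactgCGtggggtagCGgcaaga
Rcor3: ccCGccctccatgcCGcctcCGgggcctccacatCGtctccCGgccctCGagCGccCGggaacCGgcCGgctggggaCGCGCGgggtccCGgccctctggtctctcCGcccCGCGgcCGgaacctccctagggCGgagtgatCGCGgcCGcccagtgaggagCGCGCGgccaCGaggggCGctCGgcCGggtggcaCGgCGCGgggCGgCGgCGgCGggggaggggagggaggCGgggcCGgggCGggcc
Kdm1a, the most abundant of the 9, had 21 CG and Kdm5c 10.

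Partners of these enzymes were then counted. Of 15 partners of LSD1 and CoREST 12 were tested, with 0 called in either direction, beside 0.0339% of all tested loci. Of these 12, 6 were higher and 6 lower, beside 52.9% lower over all tested loci. Their median log2 fold change was -0.0048, beside -0.03 over all tested loci. The log2 fold changes were -0.72 for the deacetylase gene Hdac1 (standard error 0.45), for the complex component Gse1 -0.49 (0.52) and for the HMG-box subunit Hmg20b 0.42 (0.32). Hdac1 had 20.1 and 20.4 FPKM in the controls, 7.34 FPKM in knockdown A and 18.9 FPKM in knockdown B, so knockdown A again was the low library. Hdac2, chosen for mention after its values were seen, had 96.4 and 116 FPKM in the controls, 166 FPKM in knockdown A and 109 FPKM in knockdown B. Rest, the repressor that recruits CoREST and the most abundant of the list, had 195 and 151 FPKM in the controls and 137 and 148 FPKM in the knockdown libraries (difference -0.27 on the log2 scale, standard error 0.23). Gfi1, Gfi1b and Snai1, transcription factors that recruit LSD1 in other cells, were below the filter.

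The list for KDM5 proteins and LSD2 held 11 genes, including the paralog Kdm5d, which was at 0 and not tested. The 10 partners were tested, with 0 called, beside 0.0339% of all tested loci. Of them 4 were higher and 6 lower, with a median of -0.07. The log2 fold changes were -0.73 for E2f6, a repressor of germline genes (standard error 0.65), -0.61 for Emsy (0.35) and 0.45 for the Polycomb-related Pcgf6 (0.33). Sin3b, a corepressor scaffold and the most abundant of the list, had 107 and 87.2 FPKM in the controls and 105 and 119 FPKM in the knockdown libraries. Of 14 neuronal genes listed as REST targets, 6 were tested and 8 lay below the filter. Whether REST acts on them in these cells was not tested. With 0 called, beside 0.0339% of all tested loci, the 6 tested had a median of 0.06, 3 higher and 3 lower. Chga (chromogranin A) had 3.90 and 6.20 FPKM in the controls and 15.1 and 13.3 FPKM in the knockdown libraries (difference 1.35 on the log2 scale, standard error 0.36, limma adjusted p = 0.918). Vgf differed by -0.91 log2 units (standard error 0.78) and Stmn2, the most abundant of them, by 0.60 (0.39). Stmn2 had 66.5 and 126 FPKM in the controls and 180 and 108 FPKM in the knockdown libraries, and its groups overlapped.

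**Figure D4:**
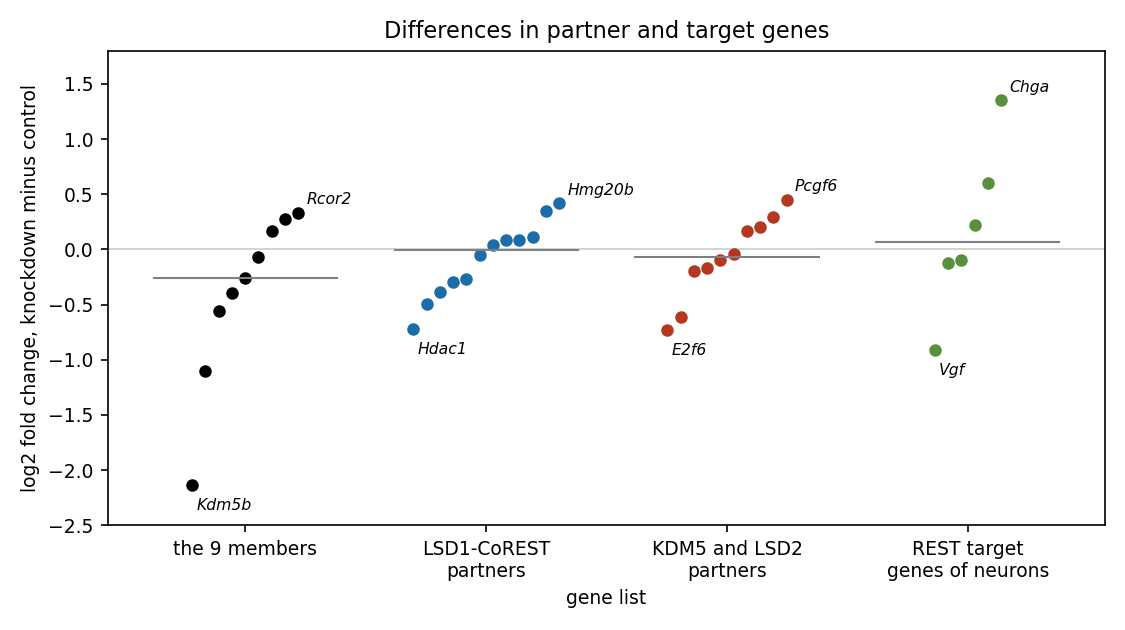
Log2 fold change, knockdown minus control, of the 9 genes, 12 partners of LSD1 and CoREST, 10 partners of KDM5 proteins and LSD2 and 6 neuronal targets of REST that were tested (points; the grey line is each list's median). Kdm5b lies lowest at -2.14 and Chga highest at 1.35, and each partner list is spread around 0.

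The loci whose pattern was most like that of Kdm5b were sought by the root mean square difference of log2(FPKM + 1), each gene centred on its own mean, over the 4 libraries. The 5 nearest named genes were Wdr54 (0.07), Ccdc130 (0.10), Heg1 (0.14), Cubn (0.17) and Col4a2 (0.20), against a median of 1.12 over all tested loci. All 5 were far less abundant than Kdm5b. The added 1 shrinks differences at such low levels, so likeness on this scale does not mean an equal fall in FPKM. Wdr54, Heg1 and Col4a2 were at 0 in knockdown A, where Kdm5b held 18.6% of its control mean. Wdr54 had 2.97 and 4.99 FPKM in the controls, 0 in knockdown A and 0.44 FPKM in knockdown B. Col4a2, a basement membrane collagen, had 4.39 and 7.47 FPKM in the controls, 0 in knockdown A and 0.91 FPKM in knockdown B. Cubn is in the endoderm marker list and was its largest value in both controls, at 4.23 and 7.39 FPKM. It had 0.27 and 0.34 FPKM in the knockdown libraries. The difference in the sum of that list, given above, is thus not separate from Cubn. Gata6, of the same list, was highest in knockdown A at 2.32 FPKM. In bulk RNA fewer cells of a type and less RNA per cell cannot be told apart. Likeness over 4 libraries is a description, and none of the 5 was called (limma adjusted p = 0.918 for each).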

How the data were processed

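Ribosomal RNA was depleted and strand-marked cDNA sheared, per the labels' protocols. The authors deposited FPKM per locus and library, made with Cufflinks and Cuffdiff on mm9, per the submitters' processing notes; no version, aligner or strand setting is given in the sources used here. FPKM carries no totals, so fragments were estimated from the steps of low values in transcripts of known length less 200 bases; 81.0% to 82.4% of these values were at most 0.15 from a whole number. They give no counting interval.

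Loci were named by RefSeq identifier from a GRCm38.p6 table, used for names only (1 symbol for 23241 loci). Loci whose mean reached 1 FPKM were fitted on log2(FPKM + 1) with limma 3.58.1 (group alone, eBayes with trend, R 4.3.3, two-sided, Benjamini-Hochberg over all loci). This scale understates changes of low genes. Sequences were aligned globally with Biopython 1.88 (match 1, mismatch -1); figures used matplotlib 3.10.9.

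Members and lists were chosen with earlier results of these data known. The genes named are the 9 members, of each partner list the 3 with the largest absolute log2 fold change and the most abundant, and the 5 genes most like Kdm5b, skipping small noncoding RNA and unnamed models. Hdac2, Gfi1, Gfi1b, Snai1 and Kdm5d, list members outside this rule, were named after their values were seen. So were the single markers Dppa5a, Pou5f1, Esrrb, Lum, Tubb3, Acta2, Gata4, Gata6 and Dab2. Alternatives were a pseudocount of 0.1, no filter, a filter at 5 FPKM, upper-quartile and quantile scaling, eBayes without trend or robust, the replicate letter as a block, and each library left out, where the lone library of a group is assumed to vary like the other group.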

Additional observations from a re-analysis of the deposited data

How the results depend on the processing

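Kdm5b kept its direction in all 12 alternative fits, with log2 fold changes of -2.40 (without control replicate A) to -1.87 (without control replicate B) and limma adjusted p from 0.054 to 1. In all 12 fits 0 of the 9 genes were called. With the replicate letter as a replicate block the adjusted p of Kdm5b was 0.0933, its log2 fold change stayed at -2.14, and 7 loci were called lower; the letters share no stated source, and the A minus B differences of the groups correlated at -0.07 across loci. The count of loci called lower, 4 with all libraries, was 1 with no filter and 2 with eBayes without trend, and ran from 0 to 119 when 1 library was left out; the count called higher, 0 with all libraries, ran from 0 to 15. The 119 and 15 were found without knockdown replicate B. The cause was not tested. Leaving out 1 library turned the sign of Kdm5c (0.020 without knockdown replicate B), Rcor1 (0.47) and Rcor3 (0.24) without knockdown replicate A, and Rcor2 (-0.29 without control replicate A). Leave-one-out values ran from -0.15 to 0.020 for Kdm5c, -2.68 to 0.47 for Rcor1, -0.29 to 0.96 for Rcor2 and -1.35 to 0.24 for Rcor3. A pseudocount of 0.1 moved Rcor1 to -2.14 and Rcor3 to -1.81, and quantile normalization moved them to -0.58 and -0.0074. Rcor3 has no value at 5 FPKM. Every member has 1 row, so summing rows changed nothing.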
